A study of Mus musculus with 15 samples.

Results

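The p53 target genes described here were 8 genes set by name, Cdkn1a, Mdm2, Bax, Ccng1, Sesn1, Zmat3, Phlda3 and Trp53inp1, chosen as genes that p53 drives in cell cycle arrest and apoptosis. All 8 could be read in all 15 libraries and passed the filter on low values, among 11536 genes tested and 43568 annotated genes with a value in every library. RNA of the large intestine of male C57Bl/6 mice aged 4 weeks was sequenced in 5 groups of 3 libraries. All mice were gavaged 3 times at intervals of 24 h, and the tissue was collected 12 h later. The vehicle group (replicates 2, 4 and 5) received Chremophor EL with 10% DMSO, which every treated group received too. Cymopol, a brominated compound of a green alga, was tested at 1.4 mmol/kg, the high dose (replicates 11, 12 and 14), and 0.3 mmol/kg, the low dose (33, 34 and 35). A non-polar extract of the alga was tested at 1.0 g/kg, the high dose (21, 23 and 25), and 0.3 g/kg, the low dose (26, 27 and 29). Nothing in the labels ties each library to a mouse of its own, so the p-values may reflect technical spread alone. In FPKM, Mdm2, Bax and Zmat3 were higher in all 6 high dose libraries than in any vehicle library, as were 13.2% of all genes tested. Zmat3 passed the filter through the high dose groups, and in the vehicle libraries Mdm2 and Zmat3 rested on estimates under 1 fragment. None of the 8 genes passed the test across all genes in any comparison. The design contrasts the agents and their doses with the vehicle, and here asks at which level each p53 target was found in each group.

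The protein p53 is a transcription factor that is kept low by the ubiquitin ligase MDM2 and accumulates after DNA damage and other stress. It binds a pair of short half-sites near its target genes, whose products halt the cell cycle, start apoptosis, limit growth or feed back on p53 itself. In the intestine the pathway is known above all from irradiated crypts, where it sets off arrest and death of dividing cells.

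Of the 8 genes, 6 had at least 1 promoter window in the RefSeq table of GRCm38.p6, which runs from 250 bases before to 50 bases after the start site, and Zmat3 and Trp53inp1 were not among them. These 6 genes had 8 windows. The p53 half-site, searched by name on both strands (it reads alike on both), was found in 5 of the 8 windows and in 8.36% of all 32851 promoter windows. The windows of Cdkn1a, Mdm2 and Bax are shown because these genes lay above the vehicle in at least 1 high dose group. That of Ccng1 is shown because it holds a half-site too while its treated groups overlapped with the vehicle in FPKM. Capitals mark the half-sites and positions count from the start site. They are Cdkn1a, upstream window, chr17:29090729-29091028 (+), Mdm2, chr10:117710709-117711008 (-), Bax, chr7:45466849-45467148 (-), and Ccng1, chr11:40755237-40755536 (-), each read 5′ to 3′ on the gene's strand.
Cdkn1a: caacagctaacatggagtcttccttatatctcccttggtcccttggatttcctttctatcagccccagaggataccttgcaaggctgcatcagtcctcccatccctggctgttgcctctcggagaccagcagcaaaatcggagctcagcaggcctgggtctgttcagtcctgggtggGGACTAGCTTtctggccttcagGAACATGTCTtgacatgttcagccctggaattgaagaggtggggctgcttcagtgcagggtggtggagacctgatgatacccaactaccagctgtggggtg
Mdm2: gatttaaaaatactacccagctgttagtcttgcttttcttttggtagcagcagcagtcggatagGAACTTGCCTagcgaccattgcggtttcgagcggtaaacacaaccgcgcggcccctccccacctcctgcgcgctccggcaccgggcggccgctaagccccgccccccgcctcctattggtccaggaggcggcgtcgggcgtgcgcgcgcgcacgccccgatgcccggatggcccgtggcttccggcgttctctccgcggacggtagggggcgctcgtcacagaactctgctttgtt
Bax: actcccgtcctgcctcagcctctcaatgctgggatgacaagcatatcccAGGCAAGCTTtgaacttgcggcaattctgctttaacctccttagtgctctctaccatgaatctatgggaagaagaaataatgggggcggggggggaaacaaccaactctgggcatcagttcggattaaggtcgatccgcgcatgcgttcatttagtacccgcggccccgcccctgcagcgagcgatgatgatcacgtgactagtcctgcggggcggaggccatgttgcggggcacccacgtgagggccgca
Ccng1: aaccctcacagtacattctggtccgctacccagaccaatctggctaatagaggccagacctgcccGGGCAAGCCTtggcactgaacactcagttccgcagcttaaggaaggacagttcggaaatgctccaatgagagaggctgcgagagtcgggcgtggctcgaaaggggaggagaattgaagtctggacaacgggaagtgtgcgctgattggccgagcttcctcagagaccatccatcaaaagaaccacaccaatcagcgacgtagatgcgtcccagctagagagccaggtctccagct

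The Cdkn1a window held 2 half-sites, GGACTAGCTT at -73 and GAACATGTCT at -51. Mdm2 held GAACTTGCCT at -186, Bax AGGCAAGCTT at -201 and Ccng1 GGGCAAGCCT at -185. The second window of Sesn1 held AAGCTTGTTT at -173, and the first of Sesn1, the second of Cdkn1a and that of Phlda3 held none. The GC box GGGCGG, searched on both strands, was in the windows of Mdm2, Bax, Sesn1 and Phlda3 and in the second of Cdkn1a, against 35.7% of all windows. The core of the antioxidant response element, TGACNNNGC, was in the second Cdkn1a window only, against 12.4% of all windows. TATAAA was in none of them, against 13.6%. CCAAT was in the windows of Mdm2, Ccng1 and Sesn1, against 37.4%. Only exact matches to RRRCWWGYYY (R for A or G, W for A or T, Y for C or T) were counted as p53 half-sites. Near matches, also those next to a marked half-site, were not counted or marked. A match describes these letters, and binding was not measured.

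The libraries differed in depth and make-up along with the groups, which bears on every value below. Estimated fragments in protein-coding genes ranged from 25237 to 227408 in the vehicle libraries, 288123 to 341687 in the cymopol high dose, 174547 to 554124 in the extract high dose, 31940 to 183371 in the cymopol low dose and 28494 to 107578 in the extract low dose. Genes held 8.52% to 46.8% of the fragments of the vehicle libraries and 56.9% to 65.5% of those of the high dose libraries. Vehicle replicates 2 and 5 and extract low dose replicate 26 had over 20% in intergenic loci. Fewer than 50000 fragments were found in vehicle replicate 5, extract low dose replicate 26 and cymopol low dose replicate 33. Colonocyte markers were present in every group, with a summed level of 154 to 2822 FPKM in the vehicle and 1428 to 2155 FPKM over the extract high dose libraries, and none of the 12 was at 0 in all 3 libraries of a group. In bulk tissue, fewer cells of a type and less RNA per cell cannot be told apart.

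Levels are FPKM, which divide fragments by gene length and by the size of the library, and libraries are given in the order of the replicate numbers above. By the median over 15 libraries the order was Cdkn1a (36.5 FPKM, above 97.8% of genes tested), Mdm2 (5.43), Ccng1 (4.08), Bax (3.23), Phlda3 (3.06), Trp53inp1 (2.91), Zmat3 (0.961) and Sesn1 (0.638 FPKM, above 30.1%). Cdkn1a stood apart by its median, though it ranged from 0.180 to 81.4 FPKM and was not the highest member in every library. In vehicle replicate 4 its 13.9 FPKM lay below Trp53inp1 (20.9) and Phlda3 (16.4). The 5 genes from Mdm2 to Trp53inp1 each ranged from 0 to at least 7.37 FPKM, and their neighbours in the order do not differ beyond that spread. Cdkn1a made up 21.4% to 85.5% of the summed level of the 8 genes in a library. That sum was 7.92 to 65.1 FPKM in the vehicle, 65.5 to 141 with cymopol and 42.8 to 150 with the extract at their high doses.

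**Figure D1:**
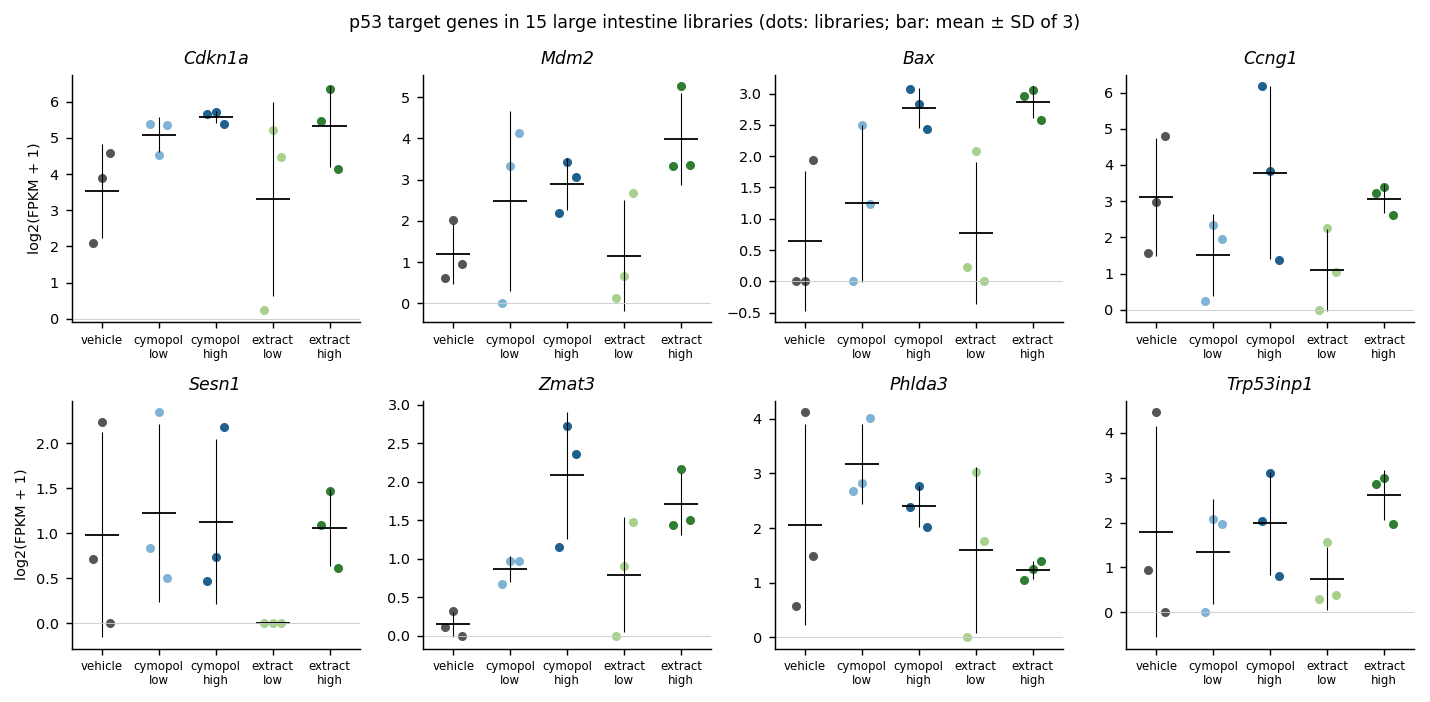
Level of each of the 8 p53 target genes as log2(FPKM + 1) on the y axis, with dots for libraries and bars for the mean ± SD of 3 libraries in each group on the x axis. All 6 high dose libraries lie above all 3 vehicle libraries for Mdm2, Bax and Zmat3, and the 3 Sesn1 values of the extract low dose lie at 0.

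The arrest gene Cdkn1a encodes p21, an inhibitor of cyclin-dependent kinases and the best known p53 target (ENSMUSG00000023067, chr17:29090976-29100727, + strand). It was at 3.28, 13.9 and 23.2 FPKM in the vehicle, 49.6, 51.2 and 40.6 with the high dose of cymopol and 41.2, 22 and 39.8 with its low dose. The extract high dose had 43.5, 81.4 and 16.6 FPKM and the extract low dose 0.180, 36.5 and 21.2 FPKM. Every cymopol high dose library was above every vehicle library, whereas the lowest library of the other 3 treated groups fell below vehicle replicate 5. In mean FPKM the cymopol high dose had 47.1 ± 5.76 (SD, n = 3) and the vehicle 13.5 ± 9.97 (SD, n = 3). The log2 difference, a difference of mean log2(FPKM + 1), was 2.05 ± 1.30 (SE) for the cymopol high dose, and the limma adjusted p was 0.488. It was 1.79 ± 1.30 for the extract high dose (limma adjusted p = 0.591) and 1.56 ± 1.30 for the cymopol low dose (limma adjusted p = 0.936). None of these passed the threshold of 0.05.

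The separation of Cdkn1a depended on the scale. As a rate per 100000 estimated fragments in protein-coding genes it was 21.7, 18.9 and 44.8 in the vehicle and 31.7, 26.5 and 68.9 in the cymopol high dose, and the groups overlapped. With 11.2 and 11.3 estimated fragments, the 95% exact Poisson intervals of vehicle replicates 2 and 5 ran from 10.9 to 38.6 and from 22.6 to 79.5, counting error only. After median-of-ratios scaling the vehicle had 22, 6.99 and 16.7 FPKM and the cymopol high dose 36.1, 21.3 and 23.1 FPKM, which also overlapped. The FPKM of vehicle replicate 2, in which genes held the smallest share of fragments, was the lowest of the 3 vehicle values, and its rate was not.

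Ccng1 encodes cyclin G1, a p53 target that acts on MDM2 through a phosphatase (ENSMUSG00000020326, chr11:40748552-40755311, - strand). It was at 1.99, 6.81 and 27.1 FPKM in the vehicle and at 71.0, 13.1 and 1.60 FPKM in the cymopol high dose. The extract high dose had 8.28, 9.44 and 5.11 FPKM, the cymopol low dose 0.182, 4.08 and 2.89, and the extract low dose 0, 3.81 and 1.06. All treated groups overlapped with the vehicle, and the cymopol high dose spanned nearly the whole range of the gene. The log2 difference of the cymopol high dose was 0.67 ± 1.18 and that of the extract high dose -0.05 ± 1.18, below the median of all genes in both comparisons. The low doses differed from the vehicle by -1.60 ± 1.18 (cymopol) and -2.02 ± 1.18 (extract).

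The feedback gene Mdm2 encodes the ligase that marks p53 for degradation (ENSMUSG00000020184, chr10:117688875-117710758, - strand). It was at 0.536, 3.09 and 0.926 FPKM in the vehicle, 3.59, 9.80 and 7.42 with the high dose of cymopol and 9.08, 37.8 and 9.29 with that of the extract. Both high dose groups were above the vehicle without overlap. The cymopol low dose had 0, 9.09 and 16.4 FPKM and the extract low dose 0.101, 0.582 and 5.43 FPKM, and both overlapped with the vehicle. The log2 difference of the extract high dose was 2.79 ± 1.13 (limma adjusted p = 0.372), and that of the cymopol high dose was 1.70 ± 1.13 (limma adjusted p = 0.504). For 4 libraries the FPKM of Mdm2 came with an interval wider than counting allows, at an estimate under 0.5 fragments, and the median estimate was 0.890 fragments a library. Its high dose rates, at most 4.81 per 100000 fragments, lay below the 5.81 and 11.9 that a count of 0 allows in vehicle replicates 2 and 5.

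Among the apoptosis genes, Bax encodes the protein that opens the outer mitochondrial membrane (ENSMUSG00000003873, chr7:45461697-45466898, - strand). It was listed at 0, 0 and 2.84 FPKM in the vehicle, against 7.37, 6.11 and 4.39 with the high dose of cymopol and 6.79, 7.35 and 4.95 with that of the extract. The 6 high dose libraries were close to each other and all above the vehicle. The cymopol low dose had 0, 4.64 and 1.36 FPKM and the extract low dose 0.177, 3.23 and 0, both in the range of the vehicle or above it. The log2 difference was 2.13 ± 0.98 for the cymopol high dose (limma adjusted p = 0.358) and 2.22 ± 0.98 for the extract high dose (limma adjusted p = 0.396). Depth bounds this reading. In vehicle replicate 4 a count of 0 allows up to 1.32 per 100000 fragments, below the 3.52 to 7.45 of the 6 high dose libraries. In vehicle replicate 2 it allows up to 5.81, and in vehicle replicate 5 the rate was 3.96 (95% exact Poisson interval 0.10 to 22.1), both inside the high dose range. A difference from those 2 libraries was therefore not detectable at this depth.

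**Figure D2:**
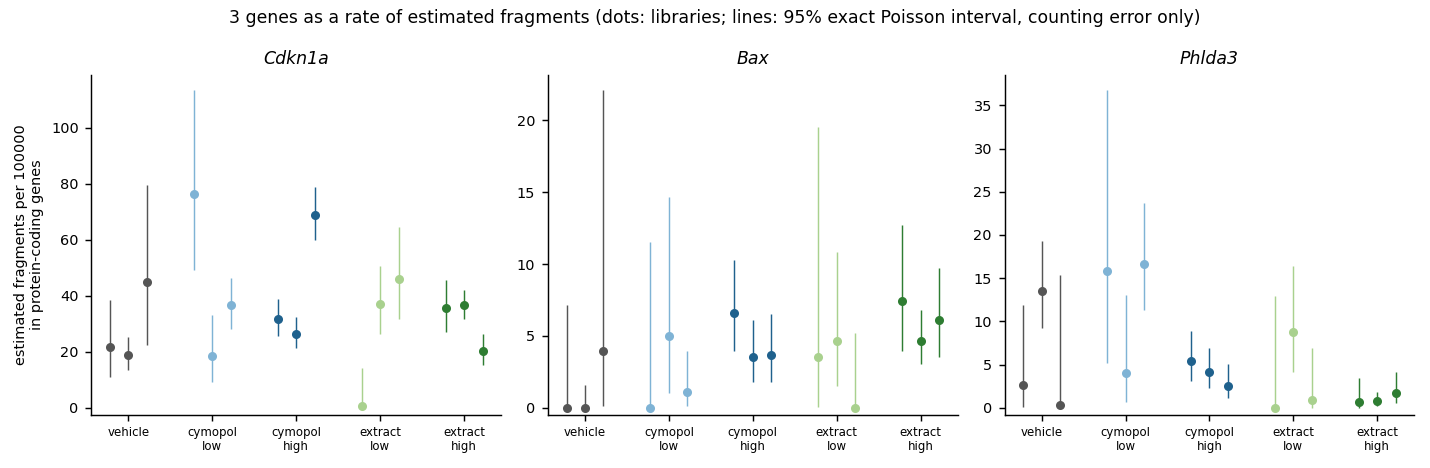
Estimated fragments of Cdkn1a, Bax and Phlda3 per 100000 in protein-coding genes on the y axis, with a dot for each library by group and lines for the 95% exact Poisson interval, which covers counting error only. Cdkn1a overlaps between the vehicle (18.9 to 44.8) and the cymopol high dose (26.5 to 68.9), and Bax stands at 0 in vehicle replicates 2 and 4 and at 3.52 to 7.45 in the 6 high dose libraries. Mdm2 and Zmat3 are not drawn because many of their fragment estimates are under 0.5.

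Trp53inp1 encodes a stress protein that promotes p53-dependent apoptosis and autophagy (ENSMUSG00000028211, chr4:11156431-11174379, + strand). It was at 0.912, 20.9 and 0 FPKM in the vehicle, 3.07, 7.58 and 0.757 with the high dose of cymopol and 6.25, 6.93 and 2.91 with that of the extract. The low doses had 0, 3.22 and 2.91 FPKM for cymopol and 0.231, 1.96 and 0.310 FPKM for the extract. Vehicle replicate 4 was the highest of all 15 libraries, and every treated group overlapped with the vehicle. The log2 difference was 0.18 ± 1.07 for the cymopol high dose and 0.81 ± 1.07 for the extract high dose.

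Phlda3 encodes a pleckstrin-homology protein that restrains AKT signalling (ENSMUSG00000041801, chr1:135766119-135769136, + strand). It was at 0.485, 16.4 and 1.82 FPKM in the vehicle, 4.24, 5.85 and 3.06 with the high dose of cymopol and 5.42, 6.13 and 15.2 with its low dose. The extract high dose had 1.07, 1.38 and 1.63 FPKM and the extract low dose 0, 7.11 and 2.38 FPKM. No treated group separated from the vehicle, and the extract high dose had the narrowest spread. Against the vehicle the log2 difference was 0.33 ± 1.06 for the cymopol high dose and -0.83 ± 1.06 for the extract high dose (limma adjusted p = 0.770).

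Sesn1 encodes sestrin 1, a stress protein that restrains mTORC1 (ENSMUSG00000038332, chr10:41809935-41908424, + strand). It was at 0.638, 3.69 and 0 FPKM in the vehicle, 0.379, 0.668 and 3.51 with the high dose of cymopol and 1.13, 1.77 and 0.531 with that of the extract. The cymopol low dose had 0.776, 4.08 and 0.411 FPKM, and Sesn1 was listed at 0 in all 3 extract low dose libraries. The log2 differences of the high doses from the vehicle were 0.14 ± 0.75 for cymopol and 0.08 ± 0.75 for the extract. Loci assembled inside introns of Sesn1, 15 in 8 libraries at 14.9 to 325 FPKM, held no exonic base and were not counted to the gene.

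Zmat3 encodes an RNA-binding zinc finger protein (ENSMUSG00000027663, chr3:32334792-32366014, - strand). It was at 0.0843, 0.255 and 0 FPKM in the vehicle, 1.23, 5.61 and 4.14 with the high dose of cymopol and 1.72, 3.5 and 1.84 with that of the extract. The cymopol low dose had 0.597, 0.961 and 0.955 FPKM and the extract low dose 0, 0.870 and 1.79 FPKM. Zmat3 was above the vehicle without overlap in both high doses and in the cymopol low dose, where its level was under 1 FPKM. The log2 difference was 1.93 ± 0.79 for the cymopol high dose (limma adjusted p = 0.317) and 1.56 ± 0.79 for the extract high dose (limma adjusted p = 0.449). Its fragment estimate was under 0.5 in 7 libraries, so these FPKM rest on very few fragments. It reached 1 FPKM in 7 libraries, the 6 of the high doses among them, so it passed the filter through the groups where it is high, and its place above the vehicle is partly set by that. In vehicle replicates 2 and 5 a count of 0 allows up to 5.81 and 11.9 per 100000 fragments, above its highest rate of 3.72 in the high doses, so a difference from them was not detectable at this depth.

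Against the vehicle, 0 of the 8 genes were called at a limma adjusted p under 0.05 in the cymopol high dose, where 0.0173% of all genes were called. The share was 0.00867% in the extract high dose and 0% in each low dose, also with 0 members called. At an unadjusted limma p under 0.05, 2 members were higher in the cymopol high dose (Bax and Zmat3) and 2 in the extract high dose (Mdm2 and Bax), against 12.4% and 10.5% of all genes. In the low doses 0 were, against 3.87% of all genes for cymopol and 1.08% for the extract. None was lower at this p, against 0.728% and 0.988% of all genes in the cymopol and extract high doses and 1.77% and 2.79% in the low doses. Fragments tested with voom also gave 0 calls among the members, against 78 of the 11536 genes called in the cymopol high dose, 112 in the extract high dose and 0 in each low dose. In the cymopol high dose 4 of 8 (Cdkn1a, Mdm2, Bax and Zmat3) lay above the vehicle without overlap, and so did 19.5% of all genes. In the extract high dose 3 of 8 did (Mdm2, Bax and Zmat3), against 19.3%. In the cymopol low dose 1 did (Zmat3), against 3.86%, and in the extract low dose 0 did, against 1.23%. None lay below the vehicle, against 0.364% of all genes in the cymopol high dose, 0.451% in the extract high dose, 0.832% in the cymopol low dose and 1.42% in the extract low dose. An F test over the 5 groups gave limma adjusted p of 0.712 (Bax) to 0.830 (Trp53inp1) for the members.

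All 6 high dose libraries lay above all 3 vehicle libraries for Mdm2, Bax and Zmat3, that is 3 of 8 (37.5%), and for 1528 of the 11536 genes tested (13.2%). Zmat3 passed the filter through the high dose groups, so its place in this count is partly set by the filter. Both contrasts share the 3 vehicle libraries. The log2 difference was above 0 for 8 of 8 members in the cymopol high dose (79.5% of all genes) and for 6 of 8 in the extract high dose (77.1% of all genes). With median-of-ratios scaling or quantile normalization Ccng1, Sesn1, Phlda3 and Trp53inp1 turned below 0 in the first of these, and Sesn1 and Trp53inp1 in the second. It was above 0 for 6 of 8 in the cymopol low dose (59% of all genes) and for 2 of 8 in the extract low dose (41.9% of all genes). The members' median was 1.19 with cymopol, where that of all genes was 0.81, and 1.18 with the extract, where that of all genes was 0.71. In the cymopol low dose the members' median was 0.66 (all genes 0.23), and in the extract low dose it was -0.34 (all genes -0.14). Median-of-ratios scaling brought the median of all genes to 0.25 in both high doses. With it 2 members (Bax and Zmat3) lay above without overlap in the cymopol high dose, against 13.7% of all genes (2.97% below), and 3 (Mdm2, Bax and Zmat3) in the extract high dose, against 15.1%, with Phlda3 then below the vehicle, against 3.28%. As fragment rates Bax overlapped with the vehicle in the cymopol high dose, where 18.9% of all genes lay above it, and lay above it in the extract high dose, as did 21% of all genes. Mdm2 and Zmat3 were not read on that scale, since their vehicle estimates were all under 1 fragment. In the cymopol low dose median-of-ratios scaling ended the separation of Zmat3 (4% of all genes lay above). It also put Ccng1 below the vehicle (2.99% of all genes). As a rate Ccng1 was below too (1.82%), on estimates of 0.00798, 2.88 and 7.46 fragments in replicates 33, 34 and 35. The exact Poisson intervals of replicates 33 and 34 reached 11.6 and 14.35 per 100000 fragments, above the 10.25 of vehicle replicate 4. That of replicate 35 ended at 8.20, below every vehicle rate. Depth therefore limits this reading of Ccng1.

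**Figure D3:**
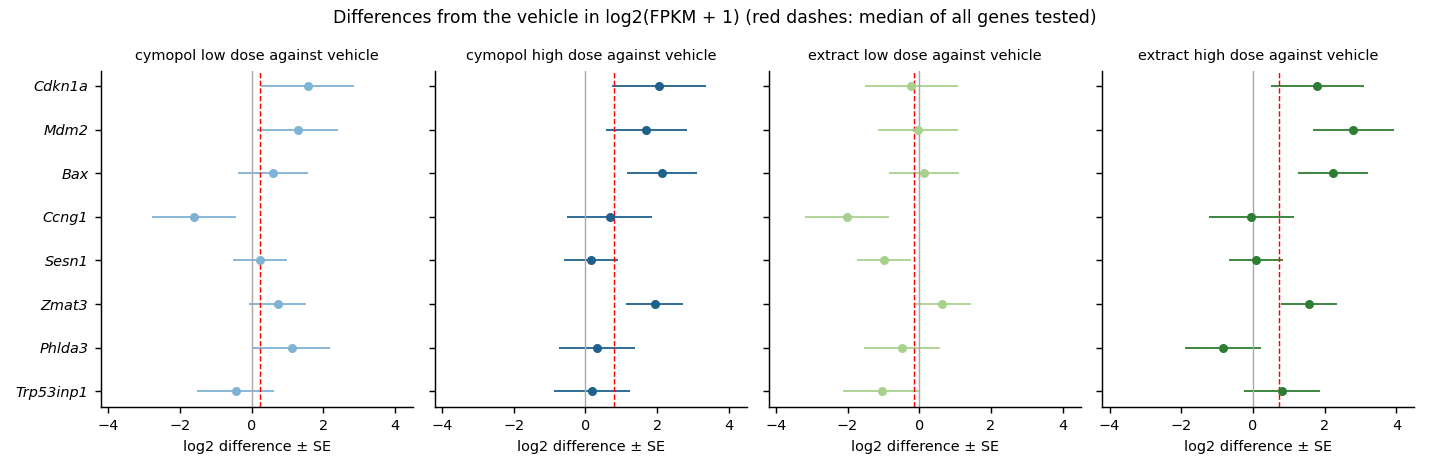
Log2 difference from the vehicle ± SE on the x axis for each of the 8 genes, in 1 panel per treated group, with the grey line at 0 and red dashes at the median of all genes tested. In the high dose panels the red dashes stand at 0.81 and 0.71, and Mdm2, Bax and Zmat3 lie to the right of them while Sesn1, Ccng1 and Phlda3 lie to the left.

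Genes that every cell uses were also higher on the median at the high doses. The 12 housekeeping genes had a median log2 difference of 1.14 (cymopol) and 0.92 (extract) at the high doses, and 3 of the 12 lay above the vehicle without overlap in each, against 19.5% and 19.3% of all genes. Ppia, which encodes cyclophilin A, was at 0, 4.48 and 0 FPKM in the vehicle and 35.8, 45.9 and 24.7 FPKM in the cymopol high dose. That difference of 4.33 ± 1.22 was larger than that of any of the 8 p53 targets. The part of depth and library make-up in the members' differences was not tested by these values.

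Between doses of the extract, 5 of the 8 genes were higher in the high dose without overlap (Mdm2, Bax, Ccng1, Sesn1 and Trp53inp1), against 20.9% of all genes, and none was lower in this way (0.0954% of all genes). At an unadjusted limma p under 0.05, 2 members were higher (Mdm2 and Bax), against 7.05% of all genes. Depth limits the reading of Sesn1, whose extract high dose rates of 3.49, 3.27 and 1.54 per 100000 fragments stand against the limits of 10.5, 2.79 and 4.23 that a count of 0 allows in the low dose libraries. With median-of-ratios scaling Trp53inp1 overlapped and the other 4 lay above, against 11.5% of all genes. As fragment rates Ccng1 overlapped and Zmat3 lay above beside Mdm2, Bax, Sesn1 and Trp53inp1, against 18.4% of all genes. For Bax the lowest high dose rate was 4.657 per 100000 fragments (replicate 23) and the highest low dose rate 4.648 (replicate 27), nearly equal values. The exact Poisson intervals of Bax in low dose replicates 26, 27 and 29 reached 19.55, 10.85 and 5.201, all above 4.657. Depth therefore limits the reading of Bax too. All low dose estimates of Mdm2 and Zmat3 were under 1 fragment, and those of Trp53inp1 were 0.0711, 6.02 and 0.0142. The largest difference was that of Mdm2, at 2.83 ± 1.13 (limma adjusted p = 0.639). The members' median was 1.91 and that of all genes 0.89, and 7 of 8 members were above 0, as were 88% of all genes. One low dose library, replicate 26, had 4 of the 8 genes at 0, none at 1 FPKM or more and a summed level of 0.688 FPKM, while 56.6% of all genes tested were at 0 in it. Without it the same 5 genes lay above without overlap and Phlda3 lay below, against 21.4% and 3.6% of all genes. Between doses of cymopol, 1 gene (Zmat3) was higher without overlap at the high dose, against 9.74% of all genes (0.815% lower), with a log2 difference of 1.21 ± 0.79. With median-of-ratios scaling no member was higher without overlap and Phlda3 was lower, against 8.69% and 2.38% of all genes. At an unadjusted limma p under 0.05, 0 members were higher there, against 5.34% of all genes, and 6 of 8 had a difference above 0, against 76.7%. Neither limma nor voom called a member in either dose comparison. Of all genes limma called 0.00867% in each, and voom called 4 genes between the cymopol doses and 2 between the extract doses.

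Between the agents at their high doses, Phlda3 was the only member that separated on the FPKM scale, and with median-of-ratios scaling Mdm2 separated too, lower with cymopol (4.44% of all genes). It was higher with cymopol (3.06 to 5.85 FPKM) than with the extract (1.07 to 1.63 FPKM), with a log2 difference of 1.17 ± 1.06 (limma adjusted p = 1), and 4.46% of all genes lay higher and 2.4% lower in this way. Bax differed by -0.09 ± 0.98 and Cdkn1a by 0.26 ± 1.30 between the agents, intervals that leave room for differences in either direction. At the low doses Sesn1 was higher with cymopol without overlap, since the extract libraries were all listed at 0, against 4.57% of all genes higher and 0.217% lower. A count of 0 allows up to 10.5, 2.79 and 4.23 per 100000 fragments in those extract libraries, and the cymopol low dose rates of Sesn1 were 5.66, 8.54 and 0.582, so no difference of the groups was detectable at this depth. At an unadjusted limma p under 0.05, 0 members were higher with cymopol at the high doses (0.954% of all genes) or at the low doses (2.97%). The difference was above 0 for 5 of 8 members at the high doses (57.4% of all genes) and 8 of 8 at the low doses (68.7%). Neither limma nor voom called a member in either comparison of agents. Of all genes limma called 0.0173% at the high doses, where voom called 4 genes, and both called 0% between the low doses.

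The pattern of Phlda3 across libraries was closest to that of adipocyte genes. Among all genes tested, those whose log2(FPKM + 1) was most like that of Phlda3 over the 15 libraries were Adipoq, the gene of the fat cell hormone adiponectin (Pearson r = 0.91), and Car3, a carbonic anhydrase abundant in fat (r = 0.89). These points share libraries that differ in depth, and the values are a description. Adipoq was at 0, 31.9 and 0 FPKM in the vehicle, 18.1, 6.40 and 9.86 with the high dose of cymopol and 11.7, 10.1 and 39.1 with its low dose. The extract high dose had 2.25, 2.54 and 2.13 FPKM and the extract low dose 0.126, 9.82 and 3.61 FPKM. The 8 adipocyte markers summed to 142 to 291 FPKM in the cymopol high dose against 44.7 to 76.3 FPKM with the extract at its high dose and 6.70 to 392 FPKM in the vehicle, with none at 0 in all 3 libraries of a group. Their part in the Phlda3 difference between the agents was not tested.

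**Figure D4:**
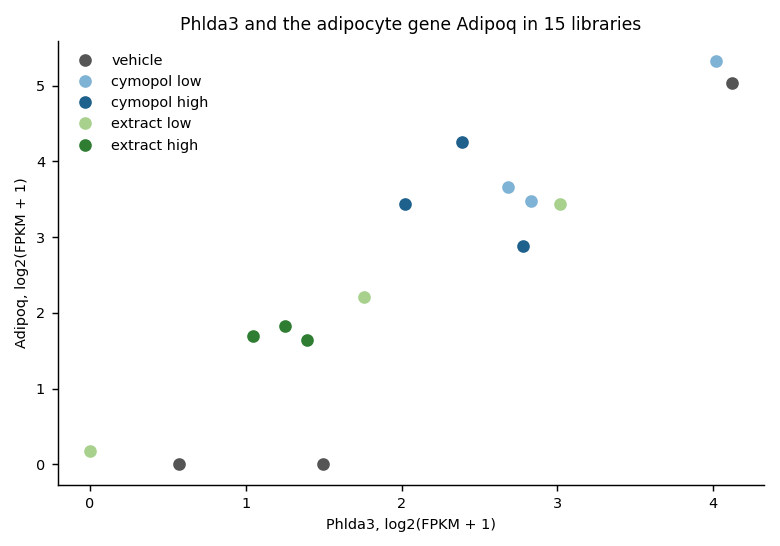
Phlda3 on the x axis and Adipoq on the y axis, both as log2(FPKM + 1), with a dot for each of the 15 libraries coloured by group. The 3 extract high dose libraries sit at 1.07 to 1.63 FPKM of Phlda3 and 2.13 to 2.54 FPKM of Adipoq, below the 3 cymopol high dose libraries on both axes.

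The other members had other nearest genes, each over the same 15 libraries. Cdkn1a was most like Myl12b (r = 0.95) and Ctbp1 (0.94), Mdm2 like Tomm5 (0.93) and Tbl1x (0.91), and Bax like Uqcr11 (0.93) and Ap1m2 (0.90). Ccng1 was most like Hao2 (r = 0.84) and Afg3l2 (0.83), Sesn1 like Orc3 (0.91) and Hspbap1 (0.91), Zmat3 like Zfp212 (0.94) and Carmil1 (0.94), and Trp53inp1 like Msl3 (0.95) and Arhgef38 (0.93). Between members the highest value was that of Mdm2 and Zmat3 (r = 0.73) and the lowest that of Phlda3 and Bax (r = -0.01).

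Trp53, the gene of p53 itself, was at 0, 20.4 and 6.29 FPKM in the vehicle, 7.93, 6.28 and 0.406 with the high dose of cymopol and 3.71, 3.15 and 4.77 with that of the extract. The low doses had 0, 0 and 2.18 FPKM for cymopol and 0, 34.6 and 5.82 FPKM for the extract. Each treated group overlapped with the vehicle. Of 12 genes of p53 and its regulators 10 were tested, and limma called 0 in either high dose. At an unadjusted p under 0.05 there were 0 too, against 12.4% (cymopol) and 10.5% (extract) of all genes higher and 0.728% and 0.988% lower. Their median log2 difference was -0.06 (cymopol) and -0.07 (extract). Atm, the kinase that signals DNA breaks to p53, was at 10.8, 2.69 and 2.92 FPKM in the vehicle. It was lower without overlap in the cymopol high dose (0.364% of all genes), the extract high dose (0.451%) and the extract low dose (1.42%). At the high doses it had 0.425, 1.66 and 1.47 FPKM with cymopol (log2 difference -1.39 ± 0.90, limma adjusted p = 0.491) and 1.03, 1.46 and 0.691 FPKM with the extract (log2 difference -1.44 ± 0.90, limma adjusted p = 0.526). The extract low dose had 0.268, 1.2 and 0.689 FPKM (log2 difference -1.72 ± 0.90), and the cymopol low dose overlapped with the vehicle. Median-of-ratios scaling divides extract low dose replicate 26 by 0.0651 and vehicle replicates 4 and 5 by 1.995 and 1.389. On that scale Atm in the extract low dose overlaps with the vehicle. There 2.97%, 3.28% and 3.37% of all genes lay lower in the cymopol high, extract high and extract low dose.

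Of 30 further p53 targets 22 were tested, and limma called 0 in either high dose. At an unadjusted p under 0.05, 3 were higher in each, against 12.4% (cymopol) and 10.5% (extract) of all genes. Their median log2 difference was 0.85 (cymopol) and 0.87 (extract), close to the 0.81 and 0.71 of all genes, and 5 of 22 lay above the vehicle without overlap in each, against 19.5% and 19.3% of all genes. Bbc3, which encodes the apoptosis inducer PUMA, was at 5.18, 5.54 and 20.1 FPKM in the cymopol high dose and at 0.0886, 2.77 and 0 FPKM in the vehicle, a log2 difference of 2.57 ± 0.92 (limma adjusted p = 0.292). Polk, a translesion DNA polymerase, was listed at 0 in the 3 vehicle libraries and at 3.33, 6.33 and 1.54 FPKM with the high dose of the extract (limma adjusted p = 0.286). Ddit4, an inhibitor of mTORC1, was above the vehicle without overlap in both high doses, as were 13.2% of all genes. It was also above in the cymopol low dose (3.86% of all genes). Its vehicle values were 0.200, 0.758 and 0 FPKM, against 6.68, 12.5 and 1.51 with the high dose of cymopol and 4.61, 11.4 and 2.90 with that of the extract. The cymopol low dose had 2.33, 1.83 and 6.13 FPKM. Polk and Ddit4 reached 1 FPKM in treated libraries only, so they passed the filter through the groups where they are high. Their place above the vehicle, also in the counts of 5 of 22, is partly set by that. It was not examined on other scales. Gadd45a, a growth arrest gene, overlapped, since vehicle replicate 4 had 18.9 FPKM.

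Of the lists that follow and the 2 above, voom called 0 genes in either high dose. The counts at an unadjusted limma p under 0.05 below are of higher genes. They stand against 12.4% of all genes in the cymopol high dose and 10.5% in the extract high dose. In the BCL2 family, 9 of 12 genes were tested and limma called 0 (1 at an unadjusted p under 0.05 in each high dose, Mcl1), with medians of 0.83 and 1.08 in the cymopol and extract high doses. The survival gene Mcl1 was at 3.10, 25.1 and 7.03 FPKM in the vehicle, 124, 123 and 57.8 with the high dose of cymopol and 45.6, 95.6 and 73.1 with that of the extract. Its log2 difference was 3.35 ± 1.29 with cymopol (limma adjusted p = 0.302) and 2.87 ± 1.29 with the extract (limma adjusted p = 0.404), larger than that of Bax. Of 16 cyclins, kinases and inhibitors 12 were tested, with 0 called by limma (1 at an unadjusted p under 0.05 in each high dose) and medians of 0.92 and 1.02. All 14 mitotic genes were tested, with 0 called by limma (4 and 1 at an unadjusted p under 0.05) and medians of 1.10 and 0.81. With cymopol at the high dose 7 of 14 lay above the vehicle without overlap, against 19.5% of all genes. With the extract 3 of 14 did, against 19.3%. In the vehicle 6 of the 14 were listed at 0 in all 3 libraries, so they passed the filter through treated libraries only. Their place above the vehicle is partly set by that. Depth limits these counts too, since every cymopol high dose library was deeper than every vehicle library. Cdk1, the kinase of mitotic entry, was at 0.857, 6.80 and 1.62 FPKM in the cymopol high dose and listed at 0 in the vehicle (limma adjusted p = 0.273). It reached 1 FPKM in high dose libraries only, so it passed the filter through the groups where it is high.

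**Figure D5:**
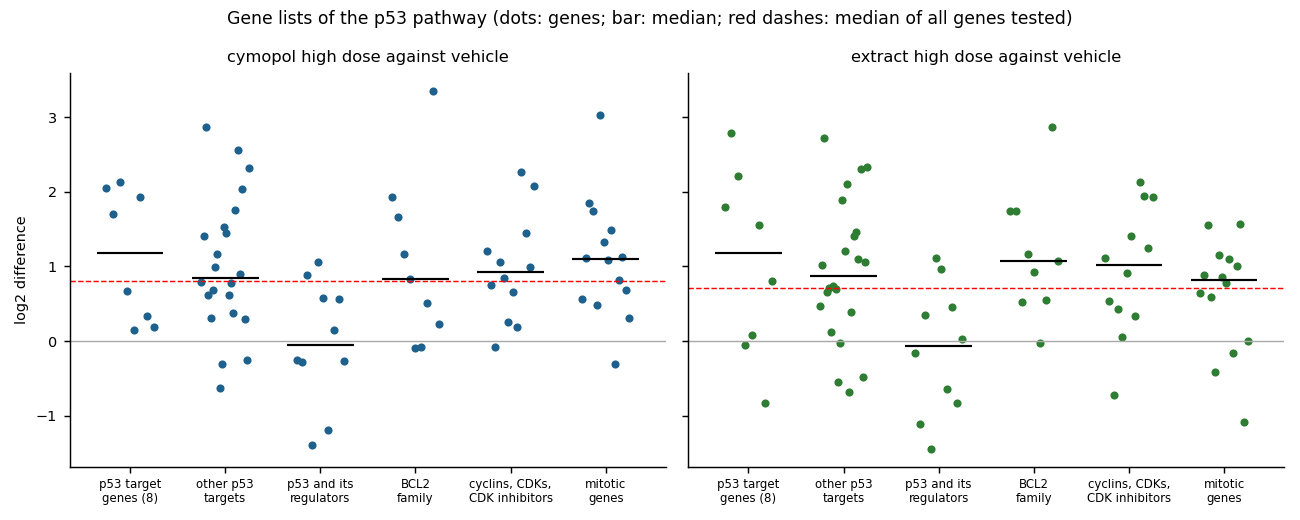
Log2 difference from the vehicle on the y axis for each tested gene of 6 lists on the x axis, in the cymopol high dose (left) and the extract high dose (right), with bars at the list medians and red dashes at the median of all genes. The 8 p53 targets have medians of 1.19 and 1.18, the 22 further targets 0.85 and 0.87, and p53 and its regulators -0.06 and -0.07.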

How the data were processed

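RNA was measured in 15 libraries of 5 groups of 3. Per the labels' protocols, 90 ng of total RNA was depleted of ribosomal RNA and made into libraries with a low-input kit. The submitters' processing notes name STAR 2.4.0j and GRCm38.p4. The quantifier and its settings: not given in the sources used here. The deposited values are FPKM made by the authors, with a lower and an upper bound, in the Cufflinks tracking layout per the file headers. Each table holds annotated genes and loci assembled per library. A gene without its own row took the assembled locus that shared at least 0.5 of their joint span with it, if each was the other's best match. Cdkn1a and Trp53inp1 were read this way in all 15 libraries, Mdm2, Ccng1 and Zmat3 in 14, Bax in 4, Sesn1 in 3 and Phlda3 in 1. Positions and symbols are those of GENCODE M21. The width of each FPKM interval gave an estimate of its fragments, and the estimate is too low where the interval is wider than counting allows.

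Values were tested as log2(FPKM + 1), so that differences of low genes are understated, for genes with at least 1 FPKM in at least 3 libraries. The 5 group means were modelled jointly in limma 3.58.1 (R 4.3.3) with an intensity trend, and 8 comparisons were drawn. Tests were two-sided, with Benjamini-Hochberg adjustment over 11536 genes and a threshold of 0.05. On data simulated for cymopol at its high dose and the vehicle, 0 of 100 genes with a log2 change of 2 and 35 of 100 with a change of 4 were called among 11536. The smallest p of an exact test of 3 against 3 is 0.1. The members, the lists and the tests were chosen with earlier results of these data known. Named were all 8 members, Trp53, up to 3 genes with the smallest p per list and high dose, and for each member the 2 genes of highest correlation. Genes of the lists that are given here are a subset of those. Alternatives were another pseudocount, filter, scaling, set of samples and handling of assembled loci, voom, and leaving out libraries.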

Additional observations from a re-analysis of the deposited data

How the results depend on the processing

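The direction of the log2 difference of Cdkn1a, Mdm2, Bax and Zmat3 in both high doses against the vehicle held under every alternative that could be fitted, and none of the 8 genes was called under any of them. The lowest adjusted p was 0.195. Of 646 alternative values of the 8 genes, 569 kept direction and side of the threshold and 77 turned sign, all of them differences that were not called. The 4 genes above the vehicle without overlap in the cymopol high dose (19.5% of all genes) became 2 with median-of-ratios scaling (13.7%) and 2 as fragment rates (18.9%), both added after seeing the data, and the latter 2, Mdm2 and Zmat3, rest on vehicle estimates under 1 fragment. No paired analysis was possible because the groups share no replicate numbers. With annotated gene rows only, none of the 8 genes could be tested. With the libraries over 20% intergenic left out, 1 vehicle library was left, which is assumed to vary like the other groups. Depth limits the low members, since Zmat3 and Mdm2 rest on a median estimate under 1 fragment. The cause of a change below was not tested.

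With a pseudocount of 0.1 the log2 differences that turned sign were extract high dose Ccng1 0.028, and extract doses Phlda3 0.25. With median-of-ratios scaling the log2 differences that turned sign were cymopol high dose Ccng1 -0.33, Sesn1 -0.54, Phlda3 -0.41 and Trp53inp1 -0.70, and cymopol low dose Sesn1 -0.16, and extract high dose Sesn1 -0.57 and Trp53inp1 -0.052, and extract low dose Mdm2 0.0046. With quantile normalization the log2 differences that turned sign were cymopol high dose Ccng1 -0.042, Sesn1 -0.79, Phlda3 -0.65 and Trp53inp1 -0.79, and cymopol low dose Sesn1 -0.040, and extract high dose Sesn1 -0.94 and Trp53inp1 -0.088, and extract low dose Cdkn1a 0.34 and Mdm2 0.026. With voom the log2 differences that turned sign were cymopol high dose Ccng1 -0.66, Sesn1 -1.09, Phlda3 -0.14 and Trp53inp1 -1.17, and cymopol low dose Sesn1 -0.37, and extract high dose Ccng1 0.22 and Sesn1 -0.76, and extract low dose Mdm2 0.13. With libraries under 50000 fragments left out the log2 differences that turned sign were cymopol high dose Sesn1 -0.35 and Trp53inp1 -0.72, and cymopol low dose Sesn1 -0.051, and extract high dose Ccng1 0.80, Sesn1 -0.41 and Trp53inp1 -0.091, and extract low dose Cdkn1a 1.85, Mdm2 0.35 and Phlda3 0.042. With libraries over 20% intergenic left out the log2 differences that turned sign were cymopol high dose Sesn1 -1.10, Phlda3 -1.73 and Trp53inp1 -2.48, and cymopol low dose Sesn1 -1.01 and Phlda3 -0.94, and extract high dose Ccng1 0.10, Sesn1 -1.17 and Trp53inp1 -1.85, and extract low dose Cdkn1a 0.95. Leaving out 1 library in turn turned some signs, over ranges of cymopol high dose Ccng1 -0.52 to 1.88, Sesn1 -0.38 to 0.77, Phlda3 -0.41 to 1.36 and Trp53inp1 -0.72 to 1.51, and cymopol low dose Bax -0.029 to 1.24, Sesn1 -0.32 to 0.87 and Trp53inp1 -1.35 to 0.88, and extract high dose Ccng1 -0.82 to 0.80, Sesn1 -0.41 to 0.70, Phlda3 -1.58 to 0.20 and Trp53inp1 -0.091 to 2.14, and extract low dose Cdkn1a -1.18 to 1.32, Mdm2 -0.80 to 0.48, Bax -0.53 to 0.77, Phlda3 -1.22 to 0.56 and Trp53inp1 -1.94 to 0.28, and extract doses Phlda3 -1.16 to 0.35.

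The count of genes called among all genes also moved. In the comparison of the cymopol high dose with the vehicle it was 2, and became 6 with a pseudocount of 0.1, 1 without a minimum FPKM, 11 with the minimum in at least 8 libraries, 0 with median-of-ratios scaling, with only the 2 groups or with annotated rows only, 78 with voom, 1 without the shallow libraries and 162 without the intergenic ones. For the cymopol low dose it was 0, then 2 with either scaling, 1 without the shallow libraries and 352 without the intergenic ones. For the extract high dose it was 1, then 3, 6 and 5 with the pseudocount and the 2 filters, 3 with median-of-ratios scaling, 2 with quantile normalization, 0 with only the 2 groups, 112 with voom, 5 without the shallow libraries and 209 without the intergenic ones. For the extract low dose it was 0, then 1 with the pseudocount or the stricter filter, 2 without the shallow libraries and 246 without the intergenic ones. Between cymopol doses it was 1, then 4 with voom and 0 with the pseudocount, the stricter filter, either scaling, only the 2 groups, annotated rows only, or without the shallow or the intergenic libraries. Between extract doses it was 1, then 3 without a minimum, 0 with only the 2 groups, and 2 with voom or without the shallow libraries. Between agents at the high doses it was 2, then 9 without a minimum, 4 with voom, and 1 with the pseudocount, the stricter filter, either scaling or annotated rows only. At the low doses it was 0, then 1 with the stricter filter. Over the 5 groups it was 3, then 9, 5 and 20 with the pseudocount and the 2 filters, 1 with annotated rows only, and 64 with voom and 64 without the intergenic libraries. With each library left out in turn the counts ranged from 0 to 7 (cymopol high dose against vehicle), 0 to 9 (cymopol low), 1 to 7 (extract high), 0 to 8 (extract low), 0 to 3 (cymopol doses), 1 to 2 (extract doses), 1 to 3 (agents, high), 0 to 1 (agents, low) and 1 to 8 (5 groups).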
